A study of Mus musculus with 2 samples.

Results

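Smooth muscle cells of the gastroesophageal squamocolumnar junction (GE-SCJ), where the esophagus opens into the stomach, were taken as the cells with the authors' deposited label for smooth muscle and a tag of the junction region. There were 456 such cells, 131 from embryonic day 15 (E15), 190 from E19, 119 from newborn mice of day 2 (pup) and 16 from adult mice of 8 weeks. They were part of 2734 cells of the GE-SCJ, 1027 smooth muscle cells of all regions and 7808 cells in all. The other smooth muscle cells came from the esophagus (187 cells) and the stomach (384 cells). All mice were wild-type C57BL/6 without treatment. The tissue of several mice was pooled under each tag, 6 embryos at E15, 2 at E19, 2 pups and 3 adults by the design text, whereas the study's methods give another number, so the number of mice is uncertain. All regions and stages were then sequenced as 1 droplet library of 3′ cDNA, in which the 7808 barcodes were distinct. Each region and stage is therefore 1 sample without replicates, so no test was made, and every interval given here is a 95% interval of counting error that does not cover differences between mice.

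Visceral smooth muscle forms the muscle coat of the gut and the thin muscularis mucosae under the epithelium. It contracts when calcium activates myosin light chain kinase and smooth muscle myosin pulls on actin filaments anchored in dense bodies. In the embryo it arises from splanchnic mesoderm under hedgehog signals from the epithelium and BMP and FGF signals within the mesenchyme. SRF, bound with its partner myocardin at short A/T-rich sequences called CArG boxes, switches on many contractile genes.

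Smooth muscle cells made up 19.5% of GE-SCJ cells at E15 (131 of 672, interval 16.6 to 22.7%) and 14.6% at E19 (190 of 1304, 12.7 to 16.6%). The share was 19.3% in the pup (119 of 615, 16.3 to 22.7%) and 11.2% in the adult (16 of 143, 6.53 to 17.5%). The shares depend on which cells survived dissociation and filtering. The median cell held 12171 unique molecular identifiers (UMIs) at E15, 11627 at E19, 4418 in pup cells and 4591 in adult cells. The summed UMIs were 1732383, 2417751, 569626 and 106821, and levels are given as CPM, the counts of a gene scaled to a common total of UMIs. The adult cells were too few for a comparison between groups of 20 or more cells. The mice of the stages also differed in sex, since Xist was at 239, 661 and 1692 CPM and 4 Y-linked genes summed to 130, 57.5 and 5.27 CPM at E15, E19 and in the pup, and sex and stage cannot be told apart.

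The label was checked against 4 markers, smooth muscle actin Acta2 (GRCm38 chr19:34241090-34255590, minus strand), enteric smooth muscle actin Actg2 (chr6:83512905-83536265, minus strand), smooth muscle myosin Myh11 (chr16:14194535-14291372, minus strand) and transgelin Tagln (chr9:45929619-45936058, minus strand). All 131 cells at E15 and 189 of 190 at E19 (99.5%) held UMIs of all 4 markers, and 88 of 119 did in the pup (73.9%). At least 2 markers were found in 112 of 119 pup cells (94.1%, 88.3 to 97.6%). The authors' clusters were built from these same genes, so the check describes the label and is no test. UMIs of the markers were also found in other cells, and 38.1%, 44.6% and 53.3% of neural cells held at least 2 of the markers at the 3 stages, at median depths of 10395.5, 7744.5 and 4607 UMIs. The same held for 73.7%, 70.9% and 31.7% of fibroblast-type cells and 52.8%, 46.0% and 51.9% of columnar cells. Over all stages all 4 markers were found in 177 of 1035 fibroblast-type cells (17.1%), 5 of 122 immune cells (4.1%), 24 of 637 columnar cells (3.77%) and 0 of 132 neural cells (exact binomial interval up to 2.76%). The part of free RNA and of shared droplets in these shares was not tested.

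The promoters of contractile genes were searched for CArG boxes, because such boxes link these genes to SRF and myocardin. The CArG box, 10 bases long, was searched on both strands of the 250 bases before each gene's start, in sequences of RefSeq on GRCm38.p6. An exact box was found for 1.62% of 27025 genes and a box with at most 1 mismatch for 21.1%. Of 21 contractile genes, 18 had a sequence, not including the markers Tagln, Myh11 and Actg2, and 2 of the 18 (11.1%) held an exact box and 9 (50%) a box with at most 1 mismatch. Shown here, with boxes in capitals, are the stretch of Acta2 with boxes that start 84 and 34 bases before the gene and have 1 mismatch each (chr19:34255383-34255472, minus strand, counted from the RefSeq start at 34255373, which lies inside the longer GENCODE gene), the exact box of myosin light chain gene Myl9 that starts 161 bases before it (chr2:156775288-156775327, plus strand), and the pair of exact boxes of Srf itself, 82 and 62 bases before it (chr17:46556200-46556259, minus strand).
Acta2: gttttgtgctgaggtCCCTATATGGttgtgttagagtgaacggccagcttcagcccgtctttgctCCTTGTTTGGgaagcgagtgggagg
Myl9: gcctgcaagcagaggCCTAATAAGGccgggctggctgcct
Srf: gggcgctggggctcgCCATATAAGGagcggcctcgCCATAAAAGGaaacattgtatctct
A match is a description of the letters and not of binding. The levels of the factors themselves were 29.4, 33.5 and 22.8 CPM for Srf and 256, 217 and 263 CPM for Myocd, which encodes myocardin, at E15, E19 and in the pup.

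The smooth muscle label joined 2 clusters of the authors, numbered 4 and 11, and their mix changed at birth. Cluster 4 held 128 of 131 GE-SCJ smooth muscle cells at E15 (97.7%) and 186 of 190 at E19 (97.9%), but 24 of 119 in the pup (20.2%, 13.4 to 28.5%). The other 95 pup cells were in cluster 11. In the pup stomach, cluster 4 held 12 of 113 smooth muscle cells (10.6%), whereas in the pup esophagus it held 19 of 22 (86.4%). The pup was therefore compared with the embryo in all labelled cells and also in cluster 4 alone.

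**Figure D1:**
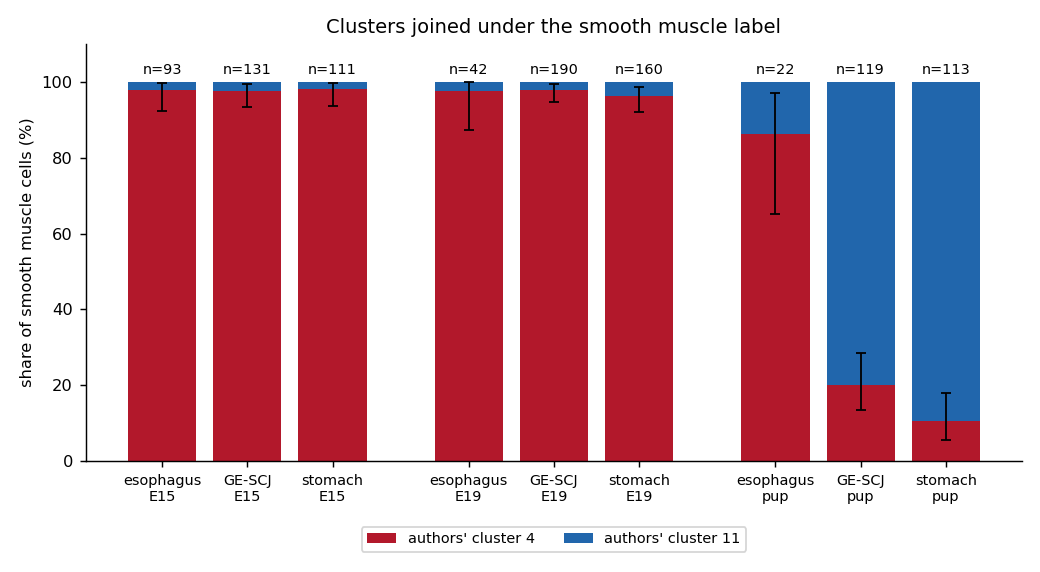
Cells with the smooth muscle label by region and stage, split into the authors' clusters 4 and 11 as a percent of each group's cells. Cluster 4 is at 97.7% and 97.9% in the GE-SCJ at E15 and E19 and at 20.2% in the pup.

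The 2 clusters of the pup GE-SCJ differed in their muscle program. Per cell, 21 contractile genes took a median of 10.1% of UMIs in pup cluster 4 (lowest 4.01%, highest 18.7%) and 2.58% in pup cluster 11 (0.301 to 10.9%). At E15 and E19 the medians in cluster 4 were 6.23% (1.5 to 13.2%) and 6.34% (1.45 to 17.2%). Pup cluster 4 thus had the highest median of these groups, and the ranges of the clusters overlapped. The median share of fibroblast-marker UMIs was 0.353% and 0.423% in cluster 4 at E15 and E19, 0.474% in pup cluster 4 and 1.06% in pup cluster 11. The median depth was 5707 UMIs in pup cluster 4 and 4315 in cluster 11.

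Between the clusters of the pup, most contractile genes and the genes Chrm2, Des and Synm were higher in cluster 4, and the genes Ptch1, Bmp4, Bmp2 and Dcn were higher in cluster 11. Since clusters are made from expression, these values describe them and are no test. Of 864 genes with at least 100 UMIs over both, 15.4% were at least 2-fold higher in cluster 11 and 8.56% at least 2-fold lower. Of 18 contractile genes, 16 were at least 2-fold lower in cluster 11 and 0 higher, with a median log2 ratio of -1.47 against 0.07 over all 864 genes. Chrm2, the main muscarinic receptor of gut muscle, had 100 UMIs in the 24 cells of cluster 4 and 1 UMI in the 95 cells of cluster 11, a log2 ratio of -7.26 (-10.3 to -5.37). The muscle intermediate filament genes Des and Synm were at 1395 and 467 CPM in cluster 4 and at 135 and 14 CPM in cluster 11.

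On the other side, 10 of 27 matrix genes were at least 2-fold higher in cluster 11 and 1 lower, whereas the BMP list had 1 higher and 1 lower of 5, and the hedgehog list 1 and 1 of 2. Ptch1, a hedgehog receptor and target, was at 70.8 CPM in pup cluster 4 and 619 CPM in cluster 11 (log2 ratio 3.00, 2.13 to 4.02). Gli1, a target that reads hedgehog activity, had 0 UMIs in cluster 4 and 93.4 CPM in cluster 11, at least 4.4-fold higher when the 0 is set to the level of 3 UMIs over the group. The hedgehog co-receptor gene Gas1 went the other way, with 566 CPM in cluster 4 and 100 CPM in cluster 11. Bmp4 and Bmp2, which encode BMP ligands, had 2 UMIs each in cluster 4 and were at 205 and 212 CPM in cluster 11 (log2 ratios 3.29, 1.70 to 5.6, and 3.34, 1.75 to 5.64). Gli1, Bmp4 and Bmp2 had too few UMIs to enter the list counts. Dcn, a small proteoglycan gene of fibroblasts, was at 113 and 1352 CPM (log2 ratio 3.49, 2.80 to 4.28). Dcn was at 3813 CPM in fibroblast-type cells of the pup GE-SCJ, and Acta2 at 323 CPM there against 6364 CPM in cluster 11. Cluster 11 thus held both the markers of its label, at a level between cluster 4 and the fibroblast-type cells, and genes of fibroblast-type cells. Whether cells of both types shared droplets was not tested.

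The contractile genes were compared between stages next, beginning with the 4 markers. Acta2 was at 11398 CPM at E15 (interval 11239 to 11558), 12884 at E19 (12742 to 13028) and 9141 in pup cells (8894 to 9393). In pup cluster 4 Acta2 was at 17564 CPM (16879 to 18269) and in pup cluster 11 at 6364 (6127 to 6607), so the lower value of all pup cells lies between values above and below those of the embryo. Actg2 was at 5931, 8322 and 3149 CPM, with 9394 in pup cluster 4 and 1090 in cluster 11. Myh11 was at 3035, 3545 and 2589 CPM, with 5423 in pup cluster 4. Tagln was at 7978, 10619 and 8593 CPM, with 16608 in pup cluster 4. All 4 markers were highest in pup cluster 4 among these stages.

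**Figure D2:**
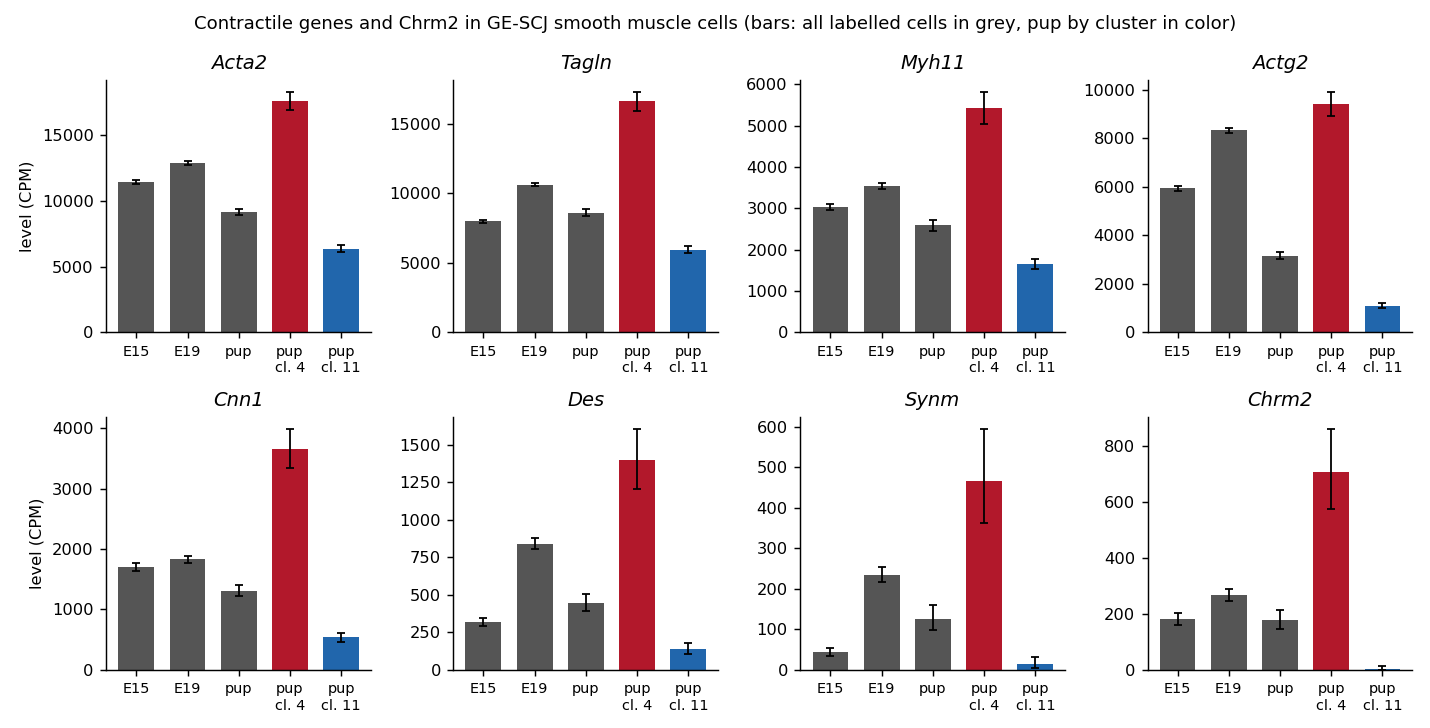
Levels of contractile genes and Chrm2 (CPM, linear axis) in GE-SCJ smooth muscle cells at E15, E19 and in the pup. Pup clusters 4 and 11 are also shown apart, and error bars are 95% counting intervals. Acta2 is at 11398 CPM at E15, 17564 in pup cluster 4 and 6364 in pup cluster 11.

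From E15 to E19, when nearly all cells were of cluster 4, few genes differed: 1.34% of 5662 genes were at least 2-fold higher at E19 and 0.653% at least 2-fold lower. Among 21 contractile genes 2 were at least 2-fold higher and 0 lower, with a median log2 ratio of 0.33 against -0.07 over all genes. Both were intermediate filament genes. Des was at 315 CPM at E15 and 840 at E19, a log2 ratio of 1.41 (1.28 to 1.55). Synm, which encodes synemin, a partner of desmin, was at 43.3 and 234 CPM, a log2 ratio of 2.42 (2.07 to 2.79). The sarcoplasmic reticulum genes Pln, which encodes the calcium pump regulator phospholamban, and Ryr2, a calcium release channel, were also over 2-fold higher, at 34.1 and 93.1 CPM and at 16.7 and 43.4 CPM. With Itpr1, another calcium release channel (22.5 and 47.6 CPM), they were the 3 of 12 excitation and calcium handling genes that were higher, and 0 were lower. Of 3 tested skeletal muscle markers, 2 were higher at the same step, Ckm (28.3 and 153 CPM) and Tnni2 (7.5 and 47.2 CPM), and the part of skeletal muscle RNA in these differences was not tested.

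Between E15 and the pup, 10.7% of 3671 genes were at least 2-fold higher in the pup and 11.7% at least 2-fold lower when all labelled cells were used. Of 20 contractile genes 1 was higher (Synm) and 2 lower (Synpo2 and Pdlim7), with a median log2 ratio of -0.27 against -0.10 over all genes. In cluster 4 alone, 6.61% of 2903 genes were higher and 14.8% lower, and 8 of 20 contractile genes were higher and 0 lower, with a median of 0.85 against -0.17 over all genes. The direction of the contractile list thus turned with the cluster mix. The pericyte markers were higher in both settings, 3 of 4 with all cells (median log2 ratio 1.96) and 3 of 3 in cluster 4 (median 2.74). In cluster 4 the log2 ratio was 2.14 (1.90 to 2.38) for Des, 3.41 (2.91 to 3.90) for Synm, 1.05 for Tagln, 1.09 for calponin gene Cnn1, 1.10 for tropomyosin gene Tpm2 and 1.37 for Csrp1. Acta2 and Myh11 stayed under 2-fold there, at 0.61 and 0.83.

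Genes for excitation and for response to transmitters had few counts, and their list counts stand beside the shares of all genes just given, 10.7% higher with all cells and 6.61% in cluster 4. With all cells 1 of 6 tested excitation and calcium handling genes was at least 2-fold higher in the pup, the gap junction gene Gja1 (33.5 and 80.8 CPM). In cluster 4, 1 of 5 was at least 2-fold higher in the pup, the calcium pump gene Atp2a2 (203 CPM at E15 and 432 in pup cluster 4). Of 4 tested transmitter and nitric oxide response genes, 2 were higher, with a median log2 ratio of 1.31. They were Chrm2, at 180 CPM at E15, 267 at E19 and 708 in pup cluster 4 (log2 ratio 1.97, 1.63 to 2.29), and the endothelin receptor gene Ednrb, at 136, 185 and 496 CPM (log2 ratio 1.88). With all pup cells Chrm2 was at 177 CPM, a log2 ratio of -0.01. Pde5a, which breaks down cyclic GMP, was the transmitter-list gene over 2-fold higher with all cells, at 271 and 574 CPM. Among the muscle gene regulators, 2 of 9 were higher with all cells, Klf4 and Mef2d, and in cluster 4 Mef2c was higher and Foxf1 lower of 7 tested. Klf4, known to restrain the contractile program in vascular smooth muscle, was at 65.2 CPM at E15, 93.9 at E19, 63.7 in pup cluster 4 and 472 in pup cluster 11.

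Extracellular matrix genes were higher in the pup in a larger share than all genes. Of 33 tested, 20 were at least 2-fold higher and 1 lower with all cells (median log2 ratio 1.19), and 10 of 30 higher and 4 lower in cluster 4 (median 0.52). Of all genes 10.7% were higher and 11.7% lower with all cells, and 6.61% and 14.8% in cluster 4. The fibroblast markers moved with the matrix genes, with 5 of 7 higher (median 1.36) with all cells and 1 of 6 (median 0.34) in cluster 4. Basement membrane collagen gene Col4a5 was at 90.6 CPM at E15, 184 at E19, 446 in pup cells and 503 in pup cluster 4. Thbs1, which encodes the matrix protein thrombospondin, was at 64.7, 108 and 760 CPM with 920 in pup cluster 4. The proteoglycan gene Ogn was at 172, 479 and 532 CPM with 1027 in pup cluster 4. These 3 genes were as high or higher in cluster 4 as in all pup cells. Others were higher through cluster 11: Dcn was at 92.4, 152 and 1045 CPM with 113 in pup cluster 4, and the laminin gene Lamb1 was at 90.6, 72.0 and 195 CPM with 7.1 in pup cluster 4. Vcan, a large proteoglycan gene of embryonic mesenchyme, was the gene over 2-fold lower with all cells, at 82.0, 40.5 and 31.6 CPM with 14.2 in pup cluster 4 (2 UMIs).

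**Figure D3:**
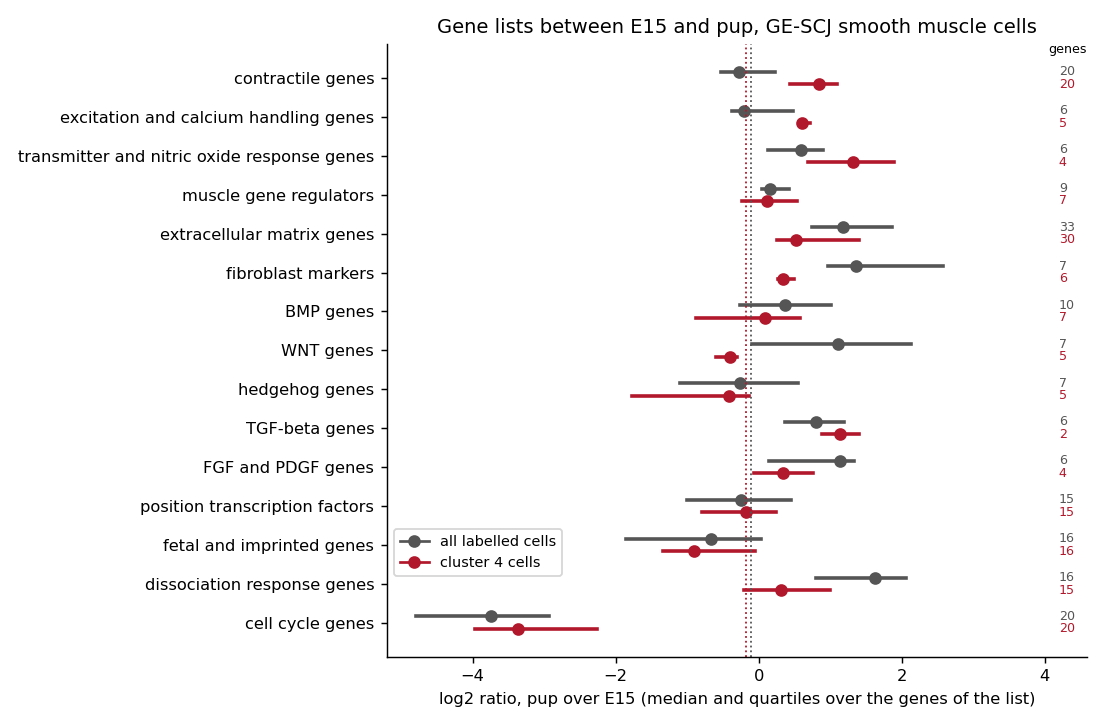
Median log2 ratio of pup over E15 for each gene list in GE-SCJ smooth muscle cells, with all labelled cells and in cluster 4 alone, beside the median of all genes. The contractile list is at -0.27 with all cells and at 0.85 in cluster 4, and the extracellular matrix list at 1.19 and 0.52.

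Signaling genes were read by pathway. In the hedgehog list 0 of 7 tested genes were at least 2-fold higher in the pup and 3 were lower with all cells, the surface co-receptor genes Cdon and Gas1 and the transcription factor gene Gli3. In cluster 4, 2 of 5 were lower, the targets Ptch1 (log2 ratio -1.78, -2.79 to -0.92) and Hhip (-2.45, -4.08 to -1.21). Ptch1 was at 268 CPM at E15, 175 at E19 and 483 in all pup cells, so it differed in opposite directions in all cells and in cluster 4. In the BMP list 3 of 10 were higher and 1 lower with all cells (median log2 ratio 0.37), where 10.7% and 11.7% of all genes were. In cluster 4, 0 of 7 were higher and 2 lower, Id1 and Id4 (median 0.09), where 6.61% and 14.8% of all genes were. Bmp4 was at 11.5, 13.2 and 158 CPM and Bmp2 at 12.1, 5.8 and 163 CPM, both through cluster 11. Id1, a direct BMP target, was at 284, 221 and 52.7 CPM and was also over 2-fold lower in cluster 4 (log2 ratio -2.03).

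The further lists stand beside 10.7% of all genes higher and 11.7% lower with all cells, and 6.61% and 14.8% in cluster 4. In the WNT list 4 of 7 were higher and 0 lower with all cells, and 0 of 5 passed 2-fold in cluster 4. Dkk3, which was not among these 5 because of its few UMIs in cluster 4, was at 22.5, 49.2 and 191 CPM with 142 in pup cluster 4, and the receptor gene Fzd1 at 45.6, 35.2 and 328 CPM with 21.2 in pup cluster 4. The TGF-beta list had 2 of 6 higher and 0 lower with all cells, the receptor genes Tgfbr2 and Tgfbr3, and 1 of 2 higher in cluster 4, Ltbp1, which encodes a TGF-beta binding protein of the matrix. The FGF and PDGF list had 4 of 6 higher and 1 lower with all cells, and 1 of 4 higher and 0 lower in cluster 4. Fgfr2, an FGF receptor gene, was at 87.2, 94.3 and 228 CPM with 205 in pup cluster 4, whereas Pdgfra was at 30.0, 12 and 121 CPM with 14.2 in pup cluster 4.

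Of 5 tested retinoic acid genes 2 were higher and 2 lower with all cells, and 0 of 3 higher and 2 lower in cluster 4. The synthesis enzyme genes Aldh1a1 and Aldh1a2 were over 2-fold higher in all pup cells and not in cluster 4. The retinoid-binding gene Crabp1 was at 84.3 CPM at E15, 12 at E19 and 1.8 in pup cells (1 UMI, log2 ratio -4.59, -7.65 to -2.72), with 0 UMIs in pup cluster 4. Rarb, a retinoic acid receptor gene, was at 60.6, 20.3 and 1.8 CPM (log2 ratio -4.12, -7.19 to -2.23), and its 1 UMI in the pup was in cluster 4. Both genes were already lower at E19, where the cluster mix was that of E15. Of 8 signals to enteric nerves, 1 was higher and 2 lower with all cells (12.5% and 25%, beside 10.7% and 11.7% of all genes), and 0 of 5 higher and 2 lower in cluster 4. Gfra1, a co-receptor gene for the nerve growth signal GDNF, was at 98.7, 39.7 and 7.0 CPM with 14.2 in pup cluster 4 (2 UMIs), and Kitl, the ligand of KIT on interstitial cells of Cajal, at 135, 205 and 59.7 CPM with 163 in pup cluster 4.

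The cell cycle list had 0 of 20 genes at least 2-fold higher and 20 lower in the pup (median log2 ratio -3.75), where 11.7% of all genes were lower, and the same counts in cluster 4, where 14.8% were (median -3.36, or -2.44 with 7 genes without a pup UMI set to the level of 3). Mki67 and Top2a, made by dividing cells, were at 136 and 304 CPM at E15, 150 and 288 at E19 and 15.8 each in the pup. A UMI of either was found in 58 of 131 cells at E15 (44.3%), 62 of 190 at E19 (32.6%) and 16 of 119 pup cells (13.4%). After each cell was thinned to 2000 UMIs leaving out 0, 1 and 3 shallower cells, the shares were 22.9%, 16.9% and 6.03%, in the same order. In fibroblast-type cells of the GE-SCJ the unthinned shares were 41.7%, 34.2% and 7.32%, and in stomach smooth muscle 45.9%, 41.3% and 12.4%, so the order over stages was not particular to the junction's muscle. The part of free RNA in such shares was not tested. The authors' phase calls placed 69 of 131 GE-SCJ smooth muscle cells at E15 (52.7%) in S or G2M phase. They placed 67 of 190 there at E19 (35.3%) and 0 of 119 in the pup.

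Of 16 fetal and imprinted genes, 7 were at least 2-fold lower in the pup, 2 higher and 7 within 2-fold with all cells, and 7 were lower and 9 within 2-fold in cluster 4. Of all genes 11.7% were lower and 10.7% higher with all cells, and 14.8% were lower in cluster 4. Sox11, a transcription factor gene of immature cells, was at 151 CPM at E15, 69.5 at E19 and 14 in pup cells. Hmga2, a chromatin protein gene of embryonic growth, was at 80.8 and 25.2 CPM and had 0 UMIs in the pup, so it was at least 15.3-fold higher at E15. Both were over 2-fold lower already at E19. The growth factor gene Igf2 was at 603, 684 and 455 CPM, and its neighbour H19 at 1393, 1887 and 5142 CPM, with 1642 in pup cluster 4 and 6296 in cluster 11. The imprinted gene Peg3 was at 336, 346 and 1262 CPM with 134 in pup cluster 4. H19 and Peg3 were thus higher in the pup through cluster 11.

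The 10 genes with the largest ratios of pup over E15 were Agt, Fmo2, Adamdec1, Igfbp3, Gpx3, Rcan2, Apoe, Col15a1, Enpp2 and Cebpd. Of these, 7 rest on cluster 11. Agt, which encodes angiotensinogen, was at 1.7 CPM at E15, 11.6 at E19 and 304 in pup cells, where 172 of 173 UMIs came from cluster 11. Igfbp3, a binding protein gene for insulin-like growth factors, was at 8.7, 6.2 and 586 CPM and had 0 UMIs in pup cluster 4. The lipid carrier gene Apoe was at 30.6, 30.2 and 1094 CPM with 14.2 in pup cluster 4. The other three were high in both pup clusters. Rcan2, an inhibitor of calcineurin, was at 4.6, 25.6 and 195 CPM with 184 in pup cluster 4 (log2 ratio in cluster 4 6.03, 4.63 to 7.76, from 4 UMIs at E15). Cebpd, a stress-responsive transcription factor gene, was at 56.6, 112 and 1710 CPM with 970 in pup cluster 4 (log2 ratio in cluster 4 4.19, 3.80 to 4.59), and the collagen gene Col15a1 at 7.5, 35.2 and 272 CPM with 127 in pup cluster 4. In the other direction the 10 genes were Tubb2b, Tpx2, Hmga2, Pclaf, Birc5, Ube2c, Nusap1, Cenpf, Smc2 and Cdca8, most of which act in DNA replication or mitosis. Tpx2 and Tubb2b had 0 UMIs in the pup and were at least 20.5-fold and 20.6-fold higher at E15.

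Genes that respond to tissue dissociation moved with the pup. Of 16 tested, 10 were at least 2-fold higher and 0 lower with all cells (median log2 ratio 1.63), 4 of 15 in cluster 4 (median 0.31), and 0 of 16 from E15 to E19, beside 10.7%, 6.61% and 1.34% of all genes. Within the pup 10 of 15 were higher in cluster 11 than in cluster 4, where 15.4% of all genes were. The heat shock gene Hspa1b was at 88.3 CPM at E15, 91.4 at E19, 418 in pup cluster 4 and 1510 in pup cluster 11. Jun, an immediate early gene, was at 656, 406, 814 and 2668 CPM. Its part in the stage and cluster differences above was not tested.

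Markers of other cell types were summed in the smooth muscle cells at E15, E19 and in the pup. The endothelial markers summed to 8.08, 12 and 8.78 CPM, the immune markers to 9.81, 12.8 and 17.6 CPM, the neural and glial markers to 9.81, 11.6 and 10.5 CPM and the mesothelial markers to 3.46, 22.3 and 15.8 CPM. These 4 lists stayed near 0. The columnar markers were higher, at 1287, 1485 and 3081 CPM, and their most abundant gene was Pgc, which encodes the gastric proenzyme pepsinogen C, at 615, 747 and 1624 CPM. Pgc had a UMI in 100% of smooth muscle cells and was at 847, 823 and 1687 CPM in fibroblast-type cells. The part of free RNA in this level was not tested. The squamous markers summed to 191, 142 and 188 CPM.

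The fibroblast markers summed to 4113, 4944 and 9763 CPM, with 5430 in pup cluster 4 and 11191 in pup cluster 11. The pericyte markers summed to 224, 338 and 1122 CPM. Their most abundant gene in the pup was Rgs5, a regulator of G-protein signaling, at 49.6, 65.8 and 637 CPM, with 481 in pup cluster 4, and Kcnj8 and Abcc9, which form a potassium channel that senses ATP, were at 283 and 234 CPM in pup cluster 4 against 42.7 and 46.2 CPM at E15. Of the pericyte markers, Notch3 had 0 UMIs in the pup and Higd1b 0 at all 3 stages. The skeletal muscle markers summed to 88.3, 258 and 72.0 CPM, most of it Ckm at E19 (153 CPM). The part of other cell types in the results was not tested.

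Relative to fibroblast-type cells of the GE-SCJ, nearly all contractile genes were at least 2-fold higher in the smooth muscle cells at each stage, and a part of the matrix genes was lower. At E15 4.26% of 7206 genes were at least 2-fold higher and 7.34% at least 2-fold lower, and the contractile list had 19 of 20 higher and 0 lower. At E19 19 of 21 were higher and 0 lower, where 4.64% of all tested genes were higher and 10.1% lower, and in the pup 17 of 18 were higher and 0 lower, where 7.98% of 1605 genes were higher and 8.35% lower. The matrix list had 18 of 39 genes lower and 1 higher at E15, 26 of 39 lower and 0 higher at E19, and 16 of 35 lower and 1 higher in the pup. The 10 genes highest in smooth muscle at every stage were Actg2, Cnn1, Myh11, Tagln, Tpm2, Hspb1, Myl9, Fbxl22, Myom1 and Synpo2, and the 10 highest in fibroblast-type cells Cxcl13, Dpt, Abca8a, Fbln1, Fmo2, Ebf1, Kcnn3, Stc2, Pid1 and Col14a1. The labels were made from these genes, so the lists describe the classes.

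The position of the junction's muscle between esophagus and stomach was then measured. At each stage, genes at least 2-fold different between esophageal and stomach smooth muscle cells were placed on a scale from 0, the esophageal level, to 1, the stomach level, on the log2 scale. The genes were chosen by the ends of the scale, and the GE-SCJ level was not used. Mitochondrial, hemoglobin and sex-linked genes were left out, but markers of other cell types and cell cycle genes were kept. At E19 they included the columnar marker Pgc on the stomach side and the skeletal muscle marker Tnnt3 on the esophageal side. Mki67 and Top2a were on the stomach side at E15 and E19. The part of such genes in the median positions was not tested. At E15 the median position of 287 genes was 0.645 (quartiles 0.427 to 0.874). It was 0.697 over the 170 genes higher in the stomach and 0.534 over the 117 genes higher in the esophagus. At E19 the median of 270 genes was 0.802, and in the pup that of 204 genes was 0.904. In cluster 4 the medians were 0.654 at E15 and 0.794 at E19, so they hardly depended on cluster 11 in the embryo. Dissociation response genes made up 0 of the position genes at E15, 7 at E19 and 8 of those in pup cells, all on the stomach side, and the 7 at E19 lay beyond the stomach level. Of all position genes, 160 of 270 at E19 and 140 of 204 in the pup were on the stomach side. At E19, 63 of the 270 lay beyond the stomach level. Without them the medians were 0.799 at E19 and 0.898 in the pup. In the pup the regions differed in their cluster mix, and with the genes that differed at E15 and E19 in place of those of the pup the position was 0.50. With genes chosen in this way at the other stages it was 0.686 at E15 and 0.738 at E19.

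Whole profiles gave the same order of likeness. Across 6137 genes at E15, Pearson's r of log2 levels was 0.951 between GE-SCJ and esophageal and 0.967 between GE-SCJ and stomach smooth muscle. At E19 it was 0.922 and 0.971 over 6119 genes, and in the pup 0.834 and 0.963 over 2085 genes. These correlations are across genes of pooled cells, which share a library and differ in depth, the esophagus having the fewest UMIs (1133570, 462460 and 114633) and fewer counts lowering r. The pup regions also differed in cluster mix, with cluster 4 at 86.4%, 20.2% and 10.6% of cells in esophagus, GE-SCJ and stomach. For cluster 4 of the pup alone r was not computed.

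The position was also read in single cells. Each cell was scored by its share of stomach-side UMIs among the UMIs of all position genes. At E15 the median share was 16.2% (SD 11.3 over 93 cells) in the esophagus, 45.8% (SD 18.4 over 131 cells) in the GE-SCJ and 67.1% (SD 12.5 over 111 cells) in the stomach. The GE-SCJ cells spread from 20% to 76.6% between their 5th and 95th percentiles, and 107 of 131 (81.7%) lay between the medians of the other regions. At E19 the medians were 20.1%, 62.5% and 71.1%, the GE-SCJ spread was narrower (SD 10.2, 45.7 to 76.6%), and 160 of 190 cells (84.2%) lay between. In the pup the medians were 17.6%, 74.5% and 75.4%, and 58 of 119 GE-SCJ cells (48.7%) lay between. A median splits its own group, so many cells of the other regions also lay between, 49.5% in the esophagus and 49.5% in the stomach at E15, 50% in each at E19, and 45.5% and 48.7% in the pup. The GE-SCJ share was above these in the embryo and close to that of the stomach in the pup. The scored cells of esophagus and stomach had also chosen the genes, and the medians and spread depended on this choice. With the 24 stomach-side and 7 esophagus-side genes chosen at the other stages the E15 medians were 39.8%, 69.3% (SD 15.5) and 74.5%, so the GE-SCJ was nearer the stomach. With 10 and 6 such genes the E19 medians were 6.07%, 32.8% (SD 17.4) and 38.5%, and the GE-SCJ spread was then not narrower than at E15. Without the dissociation response genes the E19 medians were 18.8%, 57.1% (SD 11.5) and 69.8%. Without the most abundant gene of each side, Stmn1 and Cym, the E15 medians were 16.6%, 46.5% and 69.0%. At E19 these genes were Pgc and Id2, and without them the medians were 17.7%, 62.7% and 71.3%.

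The spread at E15 moved with other properties of the cells. With cell cycle and contractile genes left out of the score, r across the 131 cells was 0.551 with total UMIs, 0.598 with the share of cell cycle UMIs and 0.550 with the share of contractile UMIs. In cells that the authors called G1 from cycle genes the E15 medians were 14.7%, 37.9% (SD 14.6) and 65.0%. In the pup r with the contractile share was -0.830, and the 24 GE-SCJ cells of cluster 4 had a median of 30.8%, beside 15.7% in 19 esophageal and 32.4% in 12 stomach cells of that cluster. In cluster 4 the shares were thus lower than with all cells in each region, and the GE-SCJ median was near that of the stomach in both. How far the cluster mix sets the pup position of all cells was not tested.

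**Figure D4:**
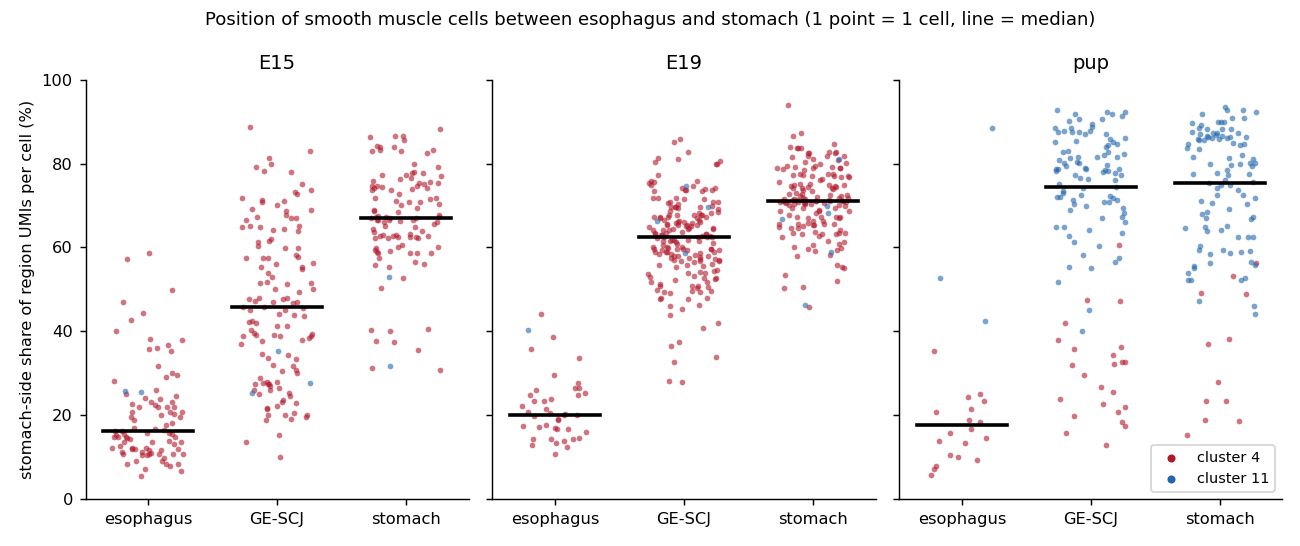
Share of stomach-side UMIs (percent) in single smooth muscle cells of the esophagus, GE-SCJ and stomach at E15, E19 and in the pup, with the median of each group marked. The GE-SCJ median is 45.8% at E15, 62.5% at E19 and 74.5% in pup cells, beside 67.1%, 71.1% and 75.4% in the stomach.

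Transcription factor genes with a known position along the gut were compared next. Of 17 tested between stomach and esophageal smooth muscle at E15, 5 were at least 2-fold higher in the stomach and 3 lower, where 4% and 2.73% of 4279 genes were. Barx1 (chr13:48662998-48666507, plus strand), a homeobox gene of stomach mesenchyme, was at 52.9 CPM in the esophagus, 457 in the GE-SCJ and 621 in the stomach at E15, at 8.65, 433 and 581 at E19, and at 34.9, 404 and 437 in the pup. The GE-SCJ was thus near the stomach at all 3 stages, with log2 ratios to it of -0.44 (-0.58 to -0.31), -0.42 (-0.55 to -0.30) and -0.11 (-0.38 to 0.15).

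Isl1, a homeobox gene needed for pyloric development, was further from the stomach in the embryo, with 3.53, 77.4 and 226 CPM in esophagus, GE-SCJ and stomach at E15 and 4.32, 55.4 and 134 at E19. In the pup it was at 8.72, 156 and 172 CPM. Six2, a homeobox gene of the distal stomach, was at 4.41, 23.1 and 141 CPM at E15 and at 0, 28.5 and 89.6 at E19, so the GE-SCJ was at least 4.4-fold above the esophagus there. Pitx1, another homeobox gene, was at 7.9, 131 and 57.5 CPM at E15 and at 6.5, 99.7 and 109 at E19. These genes were all low in the esophagus and differed in how far the junction stood from the stomach.

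On the esophageal side Nkx6-1, a homeobox gene, was at 191, 69.8 and 13.9 CPM in esophagus, GE-SCJ and stomach at E15, at 171, 65.8 and 21.2 at E19 and at 140, 12.3 and 0 in the pup. Osr1, a zinc finger gene of foregut mesoderm, was at 161, 78.5 and 23.6 CPM, then 188, 77.3 and 20.7, then 323, 33.4 and 10.7. Both genes stood between the regions in the embryo. In cluster 4 alone Osr1 was at 339 CPM in the pup esophagus and 77.9 in the GE-SCJ, and Nkx6-1 at 154 and 21.2 (3 UMIs). How far the cluster mix sets the pup levels was not tested. Fgl2, a fibrinogen-like gene, was at 207, 62.9 and 33.9 CPM at E15, at 590, 101 and 65.8 at E19 and at 794, 50.9 and 5.37 in the pup. Ednrb was at 362, 136 and 29.0 CPM at E15, at 1005, 185 and 55.9 at E19 and at 942, 258 and 349 in the pup. The WNT antagonist gene Sfrp2 was at 639, 127 and 53.8 CPM at E15 and at 231, 225 and 63.2 at E19, where the GE-SCJ matched the esophagus.

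The remaining genes of the 10 named on the stomach side were Stox2, Fzd4, Itih5, Thbs1, Cped1, Socs3 and Sfrp1, and those on the esophageal side Ppp1r12a, Ppp1r14a, Cpe, Nt5e, Ldhb, Nbl1 and Id2. Ppp1r12a and Ppp1r14a encode a subunit and an inhibitor of the phosphatase that relaxes smooth muscle. The dissociation response genes also differed by region: of 16 tested, 12 were at least 2-fold higher in the GE-SCJ than in the esophagus at E19, where 4.71% of 4228 genes were and 2.7% were lower, and 2 of 15 at E15, where 2.37% of 4297 genes were. Among the 204 position genes of the pup, 8 were dissociation response genes, all at least 2-fold higher in the stomach than in the esophagus. Of all 204 position genes, 140 were on the stomach side. The share over all tested genes is not given for this comparison. Jun was among the 8, at 811, 2208 and 1979 CPM in esophagus, GE-SCJ and stomach.

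**Figure D5:**
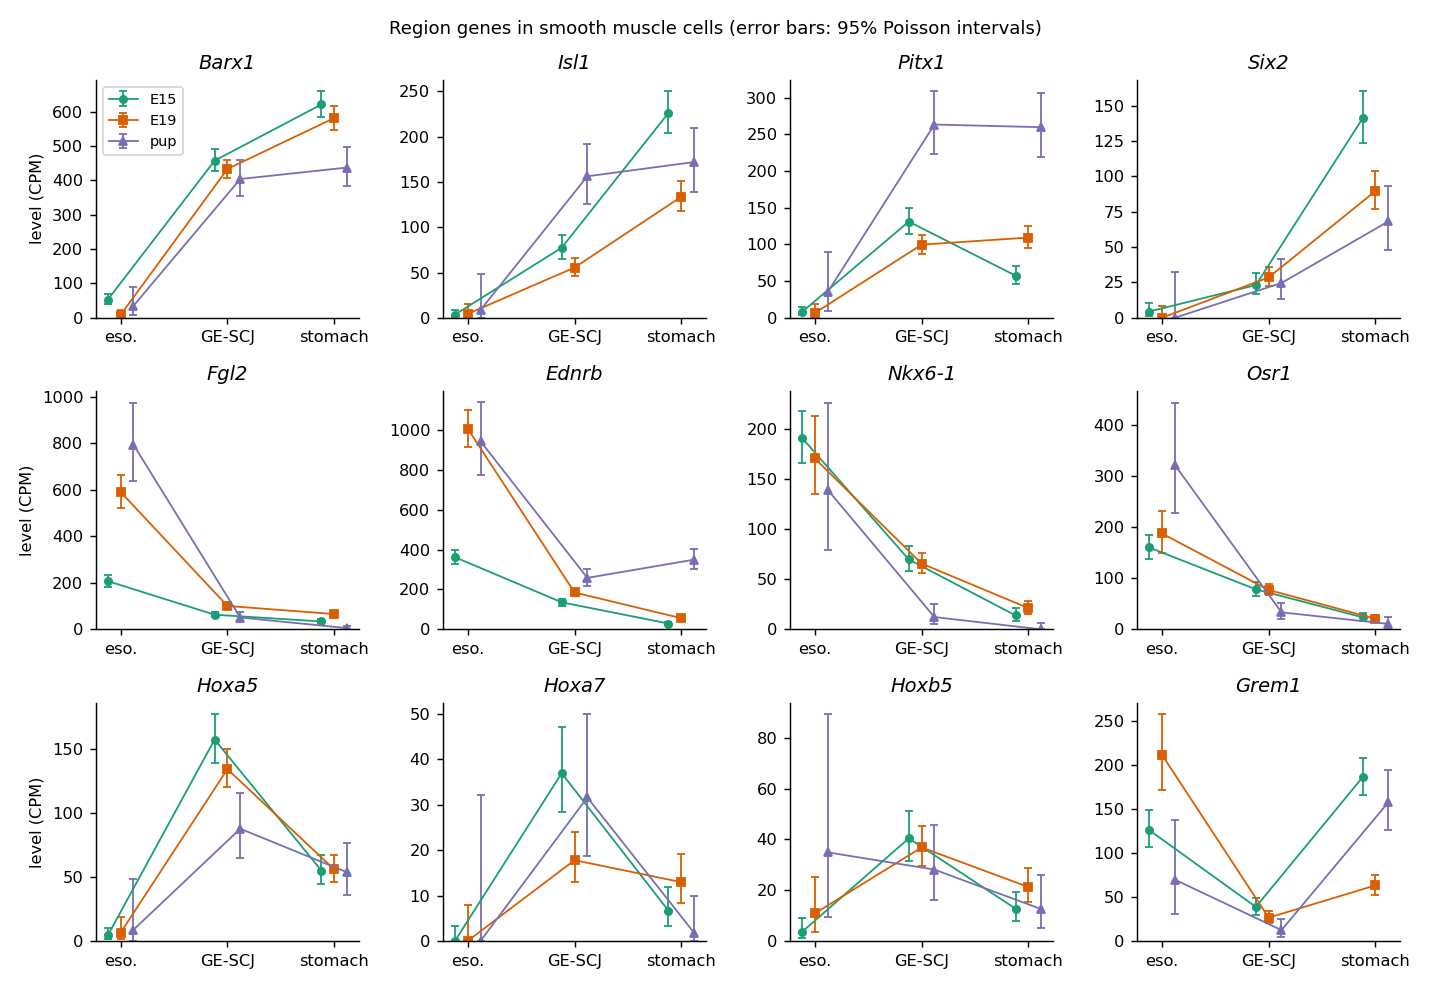
Levels (CPM, linear axis) of regional genes in smooth muscle cells of the esophagus, GE-SCJ and stomach at E15, E19 and in the pup. Error bars are 95% counting intervals. Barx1 in the GE-SCJ is at 457, 433 and 404 CPM, near the stomach, and Hoxa5 is higher in the GE-SCJ than in both other regions.

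Some genes stood outside both neighbours. Of 3912 genes with at least 50 UMIs over the regions at every stage, 127 were higher in the GE-SCJ than in esophagus and stomach at all 3 stages and 143 lower, but only 3 and 2 by at least 1.5-fold. The genes were chosen by this pattern, so it is given as a description. Hoxa5 (chr6:52201754-52204587, minus strand), a Hox gene of the gut's rostral mesenchyme, was at 4.41, 158 and 55.0 CPM in esophagus, GE-SCJ and stomach at E15, at 6.49, 134 and 55.9 at E19 and at 8.72, 87.8 and 53.7 in the pup. Its log2 ratio of GE-SCJ to stomach was 1.51 (1.16 to 1.86), 1.26 (0.94 to 1.58) and 0.69 (0.02 to 1.38). A UMI was found in 90 of 131, 122 of 190 and 39 of 119 GE-SCJ cells, so the level was not made by a few cells.

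A pair of other Hox genes had fewer counts. Hoxa7 (chr6:52214491-52221854, minus strand) had 0 UMIs in the esophagus at all 3 stages and was at 36.9, 17.8 and 31.6 CPM in the GE-SCJ and at 6.65, 12.9 and 1.79 CPM in the stomach, from 25 of 131, 30 of 190 and 15 of 119 GE-SCJ cells. It was at least 14-fold and 2.74-fold higher in the GE-SCJ than in the esophagus at E15 and E19. Hoxb5 (chr11:96303336-96306121, plus strand) was at 3.5, 40.4 and 12.7 CPM at E15, at 10.8, 36.8 and 21.2 at E19 and at 34.9, 28.1 and 12.5 in the pup, where the esophageal value rests on 4 UMIs. Hoxa7 and Hoxb5 were named after their values were seen. Of the Hox genes of the list with at least 50 UMIs over the regions, 7 of 10 were higher in the GE-SCJ than in both other regions at E15, 8 of 13 at E19 and 2 of 3 in the pup, some by little, such as Hoxb6 with 25.2 CPM in the GE-SCJ and 20.2 in the stomach at E19. Hoxb7 was at 17.8 and 18.1 CPM there, and Hoxa3 was lower in the GE-SCJ than in both other regions at E15 and E19. The share of all genes above both regions was not computed for each stage, so these counts have no background beside them. Some Hox genes passed the UMI limit mainly through the GE-SCJ, such as Hoxa7 at E15 with 0, 64 and 11 UMIs in esophagus, GE-SCJ and stomach. The counts are therefore only a description.

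In the opposite direction, Grem1 (chr2:113746164-113758646, minus strand), a secreted BMP antagonist gene, was lower in the GE-SCJ than in both neighbours. It was at 126, 38.7 and 186 CPM in esophagus, GE-SCJ and stomach at E15, at 212, 26.5 and 63.2 at E19 and at 69.8, 12.3 and 158 in the pup. The pup values rest on 8 UMIs in the esophagus and 7 in the GE-SCJ. Igf2 was among the genes above both, at 259, 603 and 457 CPM at E15, 115, 684 and 414 at E19 and 96.0, 455 and 199 in the pup. The others above both were Hspa1b, Eml4, Itga8, Nr4a2, Adarb1, Tgfbi, Fosb and Mir99ahg, of which Hspa1b and Fosb are in the dissociation list, and those below both Dpysl3, Mustn1, Ankrd40, Coro1c, Grk3, Dhrs7, Ptgfrn, Sema3c and Rbpms2. Hspa1b was at 44.1, 88.3 and 44.8 CPM at E15 and at 654, 1239 and 528 in the pup.

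Few of the contractile genes themselves differed by 2-fold between regions in the embryo. Of 20 tested at E15, 0 were at least 2-fold higher and 1 lower in the GE-SCJ than in the esophagus, where 2.37% and 1.91% of 4297 genes were, and 0 and 1 against the stomach, where 1.3% and 1.22% of 5073 genes were. At E19 0 of 20 were higher and 1 lower than in the esophagus, Synpo2 at 449 CPM in the GE-SCJ and 984 in the esophagus, and 1 of 21 was higher and 0 lower than in the stomach, where 1.51% and 0.613% of 5709 genes were. That gene was the integrin gene Itga8, at 39.3 CPM in the GE-SCJ and 16.6 in the stomach. At E15 the gene lower than in the stomach was Synm, and the gene lower than in the esophagus was Des, at 820 CPM in the esophagus, 315 in the GE-SCJ and 300 in the stomach at E15, and at 1626, 840 and 1327 at E19. Actg2 was at 5677, 5931 and 7482 CPM at E15 and at 7787, 8322 and 14341 at E19, lower in the GE-SCJ than in the stomach at both stages. In the pup 8 of 20 contractile genes were at least 2-fold lower in the GE-SCJ than in the esophagus and 0 higher, where 13.7% of 1049 genes were higher and 4.96% lower, and the regions differed there in their share of cluster 4.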

How the data were processed

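Mouse cells of esophagus, GE-SCJ and stomach were read by 3′ droplet sequencing (10x Genomics), with CellPlex tags marking region and stage. The authors made UMI counts per gene and cell with Cell Ranger 6.1.1 on mm10, filtered cells on genes, UMIs and mitochondrial share, clustered them and deposited the counts without normalization. Labels, clusters, tags, cycle phases and the mitochondrial percent per cell were deposited by the authors beside the counts and used as given. No doublet caller was run. The highest mitochondrial share of a cell was 19.7%.

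UMIs were summed over the cells of a region and stage with at least 20 cells and divided by the sum of all genes to give CPM. Intervals are exact Poisson (levels), exact conditional on both counts (ratios) or Clopper-Pearson (shares), all for counting error only. Log2 ratios have 1 UMI added to each sum. Genes with at least 100 UMIs over both groups were counted as higher or lower at 2-fold, and genes at 0 UMIs are set to the level of 3 UMIs for a bound. The cell scores used cells with at least 50 UMIs of the position genes, or at least 20 with genes chosen at the other stages. All steps ran in Python 3.11.15 with numpy 2.4.6, scipy 1.17.1 and pandas 2.3.3. The ratios and positions recovered known values in counts simulated with counting error only, where the changed genes differed by more than 2-fold. Differences between cells, mice or clusters were not simulated.

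Genes named are those of the gene lists, the 10 in each direction by pup over E15, by smallest stomach over esophagus ratio over the stages, by smooth muscle over fibroblast-type cells, and above or below both other regions at every stage. The members, lists and rules were chosen with earlier results of these data known. Sex-linked genes were set aside. A contractile gene is not reported here and was left out of its list. Coordinates are of GENCODE M21 on GRCm38 and promoters of RefSeq on GRCm38.p6. Alternatives changed the summing, library size, scaling, filters, thresholds, thinning and cells counted. Those on cluster 4, cells called G1, thinned sums, a linear scale, genes of the other stages and leaving out dissociation genes were chosen after seeing the data.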

Additional observations from a re-analysis of the deposited data

How the results depend on the processing

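Of the alternatives tried for the main values, 101 moved them by less than the limit set for each kind of value, 33 moved them further and 1 turned a direction. The direction that turned was the median log2 ratio of the contractile genes of pup over E15, which was 0.85 with cluster 4 alone. When cells of any label with at least 2 UMIs of at least 2 markers were counted, they made up 42.1%, 36.5% and 22.8% of GE-SCJ cells at E15, E19 and in the pup, and cluster 4 alone made up 3.90% in the pup. With markers counted from 3 UMIs, 84.9% of pup cells held at least 2. The cycling share was 22.9%, 16.9% and 6.03% after thinning and 31.3%, 21.1% and 1.68% when at least 2 UMIs of Mki67 and Top2a were needed, so its order over the stages was the same.

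The number of genes higher and lower in the pup than at E15 (394 and 431) was 192 higher in cluster 4, 240 and 131 in cells called G1, 722 and 786 from 50 UMIs, 181 and 227 from 200 UMIs, 719 and 916 at 1.5-fold and 176 and 170 at 3-fold. With median-of-ratios scaling it was 484 and 346. From E15 to E19 (76 and 37) it was 47 and 20 in cells called G1, 136 and 96 from 50 UMIs, 38 and 15 from 200 UMIs, 221 and 267 at 1.5-fold and 19 and 10 at 3-fold. The median position in the pup was 0.50 with genes of the other stages. The limits on UMIs and fold change the counts by their construction, and for the other settings the cause was not tested.

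Among named genes with alternatives run, the log2 ratio of pup over E15 changed sign in cluster 4 for Apoe (-0.35), Aldh1a1 (-0.35), Cdon (1.00), Ece1 (-0.14), Fzd1 (-0.67), Kitl (0.31), Lamb1 (-2.64) and Mfap5 (-0.71). The same held for Osr1 (0.14), Pdgfra (-0.31), Peg3 (-1.23), Sfrp1 (-0.40), Sfrp2 (-0.60), Spry1 (-0.0856), Synpo2 (0.0146) and Tcf21 (-1.40). Igfbp3 (-0.41) and Aldh1a2 (-1.36) had 0 UMIs in pup cluster 4, so the 1 UMI added sets their sign there. By the levels given above other genes also turned in cluster 4, among them Ptch1, Acta2, Actg2 and Myh11. The log2 ratio of pup over E15 changed sign in cells called G1, a call made from such genes, for Ccna2 (0.27), Cdk1 (1.45), Hmgb2 (0.0937), Mki67 (1.59) and Pcna (0.12). It also did for Lgals7 (0.85) without the 5% of cells with most of its UMIs. Of genes outside both regions, the smallest log2 ratio changed sign for Adarb1 (-0.0890 with mean CPM per cell, -0.12 without the 5% deepest cells), for Mustn1 (0.15) and Sema3c (0.00857) without the 5% of cells with most of their UMIs, and for Grk3 (0.00444) in cells called G1. The smallest ratio of Hoxa5 ranged from 0.65 to 1.39 over its alternatives and that of Grem1 from -1.71 to -0.73.

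In cluster 4, the median pup position over genes and the ratios of the regional genes were not computed, since the pup esophagus has 19 and the pup stomach 12 such cells. The cluster 4 levels of Osr1 and Nkx6-1 in the pup esophagus given above rest on those 19 cells. Depth limits the pup most, at 569626 UMIs in the GE-SCJ and 114633 in the esophagus. No analysis that pairs the regions by stage was run, and each region and stage is 1 pooled sample.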

Other observations

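The 16 adult cells labelled smooth muscle in the GE-SCJ were split evenly between the clusters, with 8 cells in each. Over all 16, Acta2 was at 10485 CPM, Myh11 at 4662, Tagln at 9287 and Actg2 at 4531, from 106821 UMIs. A few of the 8 adult cells of cluster 4 held UMIs of genes that were low in the pup. Sox11 had 12 UMIs in 2 cells (154 CPM over the 8) and Hmga2 had 8 UMIs in 3 cells (103 CPM), while the 9 UMIs of Mki67 and the 17 of Top2a each came from 1 cell. In pup cluster 4 Sox11 was at 35.4 CPM, Hmga2 had 0 UMIs and Mki67 was at 7.1 CPM, and in the 30 adult esophageal smooth muscle cells Sox11 and Hmga2 had 0 UMIs. Whether embryonic cells carried an adult tag was not tested.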
